A study of Homo sapiens with 17 samples.

Results

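The amino acid response genes are the genes that cells switch on through the transcription factor ATF4 when amino acids run short, and here they are followed through CRISPR knockouts of HOXA9, SAFB and MEIS1 in MOLM13 cells. MOLM13 is an established cell line from human acute myeloid leukaemia and is positive for the fusion oncoprotein MLL-AF9. The members are a list of 37 genes chosen by name, with earlier results of these data known. They are 10 regulators, 15 enzymes, 8 transporters and 4 secreted or surface proteins. Each of the 37 matched 1 of the 58278 gene identifiers in the count files, and all 37 passed the filter on low counts in the 3 fits reported here. Total RNA depleted of ribosomal RNA was sequenced in 17 libraries. The first experiment holds 3 libraries of HOXA9 knockout cells (HOXA9_KO), 3 of SAFB knockout cells (SAFB_KO) and 3 of cells edited with a non-targeting guide (NT). The second holds 4 libraries of MEIS1 knockout cells (MEIS1_KO) and 4 of its own non-targeting controls (NT_MEIS1ex). All groups, controls included, went through CRISPR editing and carry MLL-AF9. The labels do not say how many guides were used, how long after editing the cells were taken, whether they were pools or clones, or whether replicate libraries stem from different cultures. The p-values therefore measure the spread between these libraries, which may be technical.

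When an amino acid is missing, uncharged tRNA activates the kinase GCN2 (gene EIF2AK4), which phosphorylates the translation initiation factor eIF2. General translation slows, while the ATF4 mRNA is translated better, and the ATF4 protein, paired with a C/EBP partner, induces genes for amino acid synthesis, uptake and tRNA charging. Other eIF2 kinases feed the same pathway from the endoplasmic reticulum, from viral RNA and from haem shortage, and TRIB3 and PPP1R15A act as its brakes. Because ATF4 is controlled mainly through translation, its mRNA level is not a measure of its protein.

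ATF4 with C/EBP binds a composite element, TGATGNAA, and the promoters of members that hold these letters are shown to set a strongly lowered gene beside one that hardly moved. The RefSeq promoter table (GRCh38.p14, 250 bases before and 50 bases from each gene's start) held 49 windows for 29 of the 37 members. TGATGNAA was searched on both strands. It was present for 9 of the 29 members (31.0%), which were ATF3, JDP2, ASNS, MTHFD1L, CHAC1, SLC7A1, SLC3A2, SLC1A4 and SLC1A5, and for 4.46% of all 27305 genes with a window. The cyclic AMP response element TGACGTCA was found for 1 member, PPP1R15A (3.45%), and for 2.25% of all genes. TGATTTAT, a PBX and HOX composite element, was found for 0 of the 29 members and for 1.05% of all genes. No match overlapped another motif, and a match describes letters in a window, not a bound site. CHAC1, ASNS and ATF3 are printed as members that fell in both HOXA9_KO and SAFB_KO, and MTHFD1L as a member with the same element and little change there. Their falls were the deepest of the 9, while SLC1A4 changed by -0.36 in HOXA9_KO and -0.25 in SAFB_KO. INHBE, SLC6A9, ADM2 and STC2 fell farther in HOXA9_KO and are not among the 9, though not every member had a window. The windows are chr15:40953221-40953520 on the plus strand for CHAC1, chr7:97872359-97872658 on the minus strand for ASNS, chr1:212565157-212565456 on the plus strand for ATF3 and chr6:150866236-150866535 on the plus strand for MTHFD1L. Each is written 5′ to 3′ along the gene's strand, and capitals mark the element, which in CHAC1 lies on the opposite strand and so reads TTGCATCA.
CHAC1: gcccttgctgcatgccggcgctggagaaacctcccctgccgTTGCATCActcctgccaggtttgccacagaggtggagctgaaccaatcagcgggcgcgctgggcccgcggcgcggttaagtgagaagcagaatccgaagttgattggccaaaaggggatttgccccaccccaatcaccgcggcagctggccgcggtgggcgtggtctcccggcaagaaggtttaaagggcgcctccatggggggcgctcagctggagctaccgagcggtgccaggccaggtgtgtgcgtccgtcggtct
ASNS: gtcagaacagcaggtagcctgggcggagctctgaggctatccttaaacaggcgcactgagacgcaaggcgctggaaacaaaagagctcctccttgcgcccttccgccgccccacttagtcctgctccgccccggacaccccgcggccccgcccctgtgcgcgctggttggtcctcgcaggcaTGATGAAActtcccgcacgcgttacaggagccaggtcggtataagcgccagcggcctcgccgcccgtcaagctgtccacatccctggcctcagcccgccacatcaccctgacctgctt
ATF3: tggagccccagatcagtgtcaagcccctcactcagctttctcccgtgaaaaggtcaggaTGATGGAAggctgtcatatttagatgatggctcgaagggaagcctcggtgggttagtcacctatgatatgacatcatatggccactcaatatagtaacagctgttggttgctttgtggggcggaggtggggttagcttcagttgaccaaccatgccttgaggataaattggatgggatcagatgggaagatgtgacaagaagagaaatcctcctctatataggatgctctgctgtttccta
MTHFD1L: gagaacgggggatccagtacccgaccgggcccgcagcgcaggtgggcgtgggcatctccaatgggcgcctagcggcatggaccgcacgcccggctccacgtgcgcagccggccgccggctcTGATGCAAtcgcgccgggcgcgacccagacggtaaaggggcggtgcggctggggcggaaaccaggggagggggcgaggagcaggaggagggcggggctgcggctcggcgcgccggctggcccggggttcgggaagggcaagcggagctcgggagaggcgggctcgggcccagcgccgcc
The element begins 209 bases before the start in CHAC1, 68 bases before it in ASNS, 191 bases before it in ATF3 and 129 bases before it in MTHFD1L.

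Depth was 30.7 to 67.8 M assigned reads a library in the HOXA9 and SAFB experiment and 23.3 to 33.2 M in the MEIS1 experiment. Mitochondrial ribosomal RNA took 31.9 to 35.5% of the assigned reads in HOXA9_KO, 24.9 to 27.0% in SAFB_KO and 22.5 to 28.4% in NT, but at most 0.00941% in the MEIS1 experiment. Unassigned reads that matched no counted feature came to 8.65 to 9.27% in HOXA9_KO, 10.6 to 12.7% in SAFB_KO and 16.4 to 18.1% in NT. The targeted mRNAs stood at 21.1 to 21.9 CPM for HOXA9 in HOXA9_KO against 40.1 to 42 CPM in NT, 19.4 to 22.2 CPM for SAFB in SAFB_KO against 33.6 to 40.9 CPM in NT, and 10.3 to 12.8 CPM for MEIS1 in MEIS1_KO against 31.7 to 33.4 CPM in NT_MEIS1ex. MEIS1 mRNA was also lower in HOXA9_KO (-1.54 ± 0.06, log2 ± SE) and in SAFB_KO (-0.31 ± 0.05). Of 10 markers of myeloid leukaemia lines, 9 or 10 averaged over 1 CPM in each group. The 8 erythroid and megakaryocyte markers summed to at most 3.92 CPM in any library, with GYPB and PF4 at 0 counts in all groups.

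Most members were lower in HOXA9_KO and in SAFB_KO, and the size of the fall differed widely between them. In HOXA9_KO 30 of the 37 members fell, 5 rose and 2 were not called at an adjusted p under 0.05, where 57.5% of the 18876 tested genes were called, 29.9% lower and 27.6% higher. In SAFB_KO 35 members fell and 2 rose, where 35.5% of the tested genes were called, 15.3% lower and 20.2% higher. In MEIS1_KO 26 fell, 1 rose and 10 were not called, where 8.81% of the 15744 tested genes were called, 3.84% lower and 4.97% higher. The median log2 fold change over the members was -0.91 in HOXA9_KO, -0.97 in SAFB_KO and -0.30 in MEIS1_KO, and over all tested genes it was -0.07 in HOXA9_KO, -0.02 in SAFB_KO and 0.00 in MEIS1_KO. In these bulk libraries, fewer cells of a type and less RNA per cell cannot be told apart.

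Falls of at least 1 on the log2 scale were seen for 17 members in HOXA9_KO (10.4% of all tested genes), for 17 in SAFB_KO (3.61%) and for 0 in MEIS1_KO (0.114%). A rise of that size was seen for 1 member in HOXA9_KO, SLC7A11 (5.07% of all tested genes), and for 0 members in SAFB_KO (1.02%) and in MEIS1_KO (0.235%). Every HOXA9_KO library lay below every NT library for 31 members and above for 6, against 33.5% and 29.1% of all tested genes. Every SAFB_KO library lay below NT for 35 members and above for 2, against 22.3% and 24.1% of all tested genes. In MEIS1_KO 25 members lay below in every library, 1 lay above and 11 overlapped, against 7.28% below and 8.43% above over all tested genes. The HOXA9_KO and SAFB_KO comparisons share the NT libraries, so a member low in both is not 2 independent observations.

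Scaling moved some of these calls. With library sizes taken from nuclear protein-coding genes only, the median over all tested genes moved to -0.32 in HOXA9_KO and -0.16 in SAFB_KO, and the share of calls that were higher moved to 23.6% in HOXA9_KO (48.0% in the main fit), 23.7% in SAFB_KO (56.9%) and 68.5% in MEIS1_KO (56.5%). Under that scaling 32 members fell and 3 rose in HOXA9_KO, and 35 fell and 1 rose in SAFB_KO.

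The members moved alongside changes in cell state. The summed level of 12 monocyte and granulocyte differentiation genes was 29964 to 32899 CPM in HOXA9_KO, 13182 to 14847 CPM in SAFB_KO and 4531 to 4642 CPM in NT, and all 12 genes rose in both knockouts. In MEIS1_KO it was 7092 to 7486 CPM, against 3330 to 5036 CPM in NT_MEIS1ex, and 11 of the 12 rose. LYZ alone averaged 29694 CPM in HOXA9_KO, 12820 CPM in SAFB_KO and 4152 CPM in NT, which is most of these sums. It averaged 6664 CPM in MEIS1_KO and 3675 CPM in NT_MEIS1ex. The 12 G2/M genes summed to 845 to 883 CPM in HOXA9_KO, 1357 to 1417 CPM in SAFB_KO and 1616 to 1767 CPM in NT, with 11 lower in HOXA9_KO and 10 lower in SAFB_KO. They summed to 1364 to 1600 CPM in MEIS1_KO, against 1375 to 1566 CPM in NT_MEIS1ex, with 1 of the 12 lower. The 12 interferon response genes summed to 110 to 126 CPM in HOXA9_KO, 203 to 222 CPM in SAFB_KO and 939 to 1293 CPM in NT, and all 12 fell in both. They summed to 222 to 335 CPM in MEIS1_KO, against 161 to 229 CPM in NT_MEIS1ex, with 1 of the 12 higher and 0 lower. Epithelial and stromal markers summed to 489 to 514 CPM in HOXA9_KO, 312 to 333 CPM in SAFB_KO, 169 to 174 CPM in NT, 357 to 367 CPM in MEIS1_KO and 249 to 281 CPM in NT_MEIS1ex, with 3 of the 8 above 1 CPM and EPCAM at 0 counts in every group but NT. PECAM1 alone averaged 494 CPM in HOXA9_KO, 310 CPM in SAFB_KO and 161 CPM in NT, which is most of that sum, while KRT8 averaged 3.87 CPM in HOXA9_KO, 2.9 CPM in SAFB_KO and 2.91 CPM in NT. The lymphoid markers summed to 112 to 202 CPM over all libraries, with 2 or 3 of the 10 above 1 CPM in each group. The part of these shifts, and of the mitochondrial and unassigned reads, in the members' changes was not tested.

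**Figure D1:**
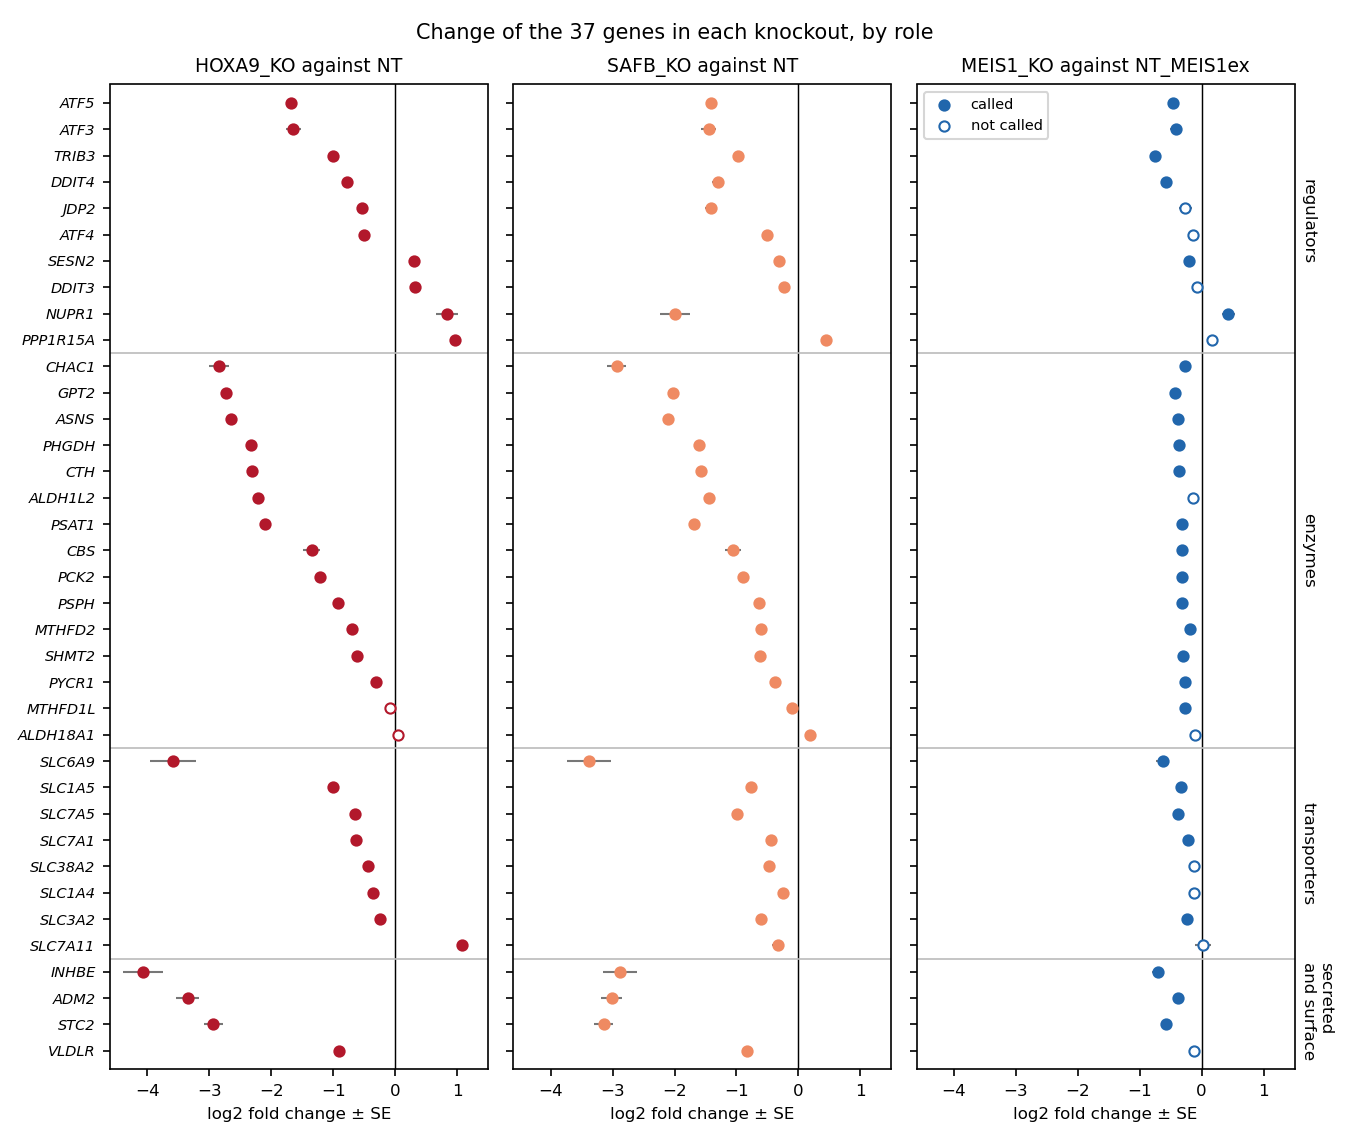
Log2 fold changes (x axis, log2, bars show SE, filled points were called) of the 37 members (y axis, grouped by role) in HOXA9_KO against NT, SAFB_KO against NT and MEIS1_KO against NT_MEIS1ex. Most points lie left of 0, INHBE, SLC6A9, ADM2, STC2 and CHAC1 lie farthest left in HOXA9_KO and SAFB_KO, and the MEIS1_KO points stay within 1 log2 unit of 0.

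The regulators showed the most divided pattern: 6 fell and 4 rose in HOXA9_KO, 9 fell and 1 rose in SAFB_KO, and 5 fell and 1 rose in MEIS1_KO. Over all tested genes, 29.9% fell and 27.6% rose in HOXA9_KO, 15.3% and 20.2% in SAFB_KO, and 3.84% and 4.97% in MEIS1_KO. The same shares stand beside the counts of the other roles below. ATF4 itself (chromosome 22, 39519695 to 39522685, plus strand, hg38) had 351, 341 and 352 CPM in HOXA9_KO, 348, 337 and 348 CPM in SAFB_KO and 482, 513 and 479 CPM in NT. Every knockout library lay below every NT library, and the log2 fold change was -0.50 ± 0.03 in HOXA9_KO (adjusted p = 2.8e-19) and -0.51 ± 0.03 in SAFB_KO (adjusted p = 4.8e-19). The MEIS1 experiment gave 606, 609, 618 and 599.7 CPM in MEIS1_KO, against 689, 635, 670.0 and 693 CPM in NT_MEIS1ex. All 4 MEIS1_KO libraries were lower, but the change of -0.14 ± 0.04 missed the threshold (adjusted p = 0.0521) and passed it with RLE size factors (adjusted p = 0.0493), DESeq2 (0.0149) and limma-voom (0.0453), and without NT_MEIS1ex replicate 2 (0.0185).

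ATF5, a relative of ATF4 whose translation responds to eIF2 phosphorylation too, had 27, 26.1 and 26.8 CPM in HOXA9_KO, 31.3, 32 and 33.1 CPM in SAFB_KO and 77.6, 88.7 and 89.5 CPM in NT. Its levels in both knockouts were far below NT with no overlap, at -1.68 ± 0.05 in HOXA9_KO (adjusted p = 1.2e-31) and -1.41 ± 0.05 in SAFB_KO (adjusted p = 3.6e-28). ATF5 stood at 386, 407, 415 and 424 CPM in MEIS1_KO, against 593, 492, 557 and 609 CPM in NT_MEIS1ex. It fell there by less, at -0.46 ± 0.06 (adjusted p = 8.7e-05), again with no overlap. On the opposite strand, 21.2% of its exon bases overlap another gene, and the sources used here do not give the strand setting of the counting.

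ATF3, a stress-induced member of the same family, had 3.45, 3.27 and 3.11 CPM in HOXA9_KO, 3.64, 3.77 and 3.79 CPM in SAFB_KO and 9.86, 11.8 and 8.97 CPM in NT. The NT libraries were all higher than the knockout ones, and ATF3 fell by 1.64 ± 0.12 in HOXA9_KO (adjusted p = 4.9e-17) and by 1.45 ± 0.11 in SAFB_KO (adjusted p = 4.6e-15) on the log2 scale. In MEIS1_KO it had 12.5, 13.5, 14.4 and 18 CPM, against 20.7, 17.7, 19.5 and 19.6 CPM in NT_MEIS1ex. The highest MEIS1_KO library reached into the control range, and the change was -0.41 ± 0.09 (adjusted p = 0.0101).

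TRIB3, a pseudokinase that binds ATF4 and restrains it, had 16.9, 16.9 and 17.1 CPM in HOXA9_KO, 17.5, 16.3 and 18.4 CPM in SAFB_KO and 32.8, 35.9 and 33.7 CPM in NT. The level in each knockout was near the midpoint between 0 and the NT level, with changes of -1.01 ± 0.06 in HOXA9_KO (adjusted p = 2.7e-19) and -0.97 ± 0.06 in SAFB_KO (adjusted p = 3.2e-18). MEIS1_KO had 89.8, 101, 96.3 and 109.6 CPM, against 163, 147, 176 and 183 CPM in NT_MEIS1ex. TRIB3 had the most negative log2 fold change of the 37 members in MEIS1_KO, at -0.75 ± 0.07 (adjusted p = 6.2e-06), with no overlap.

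DDIT3, which encodes the pro-apoptotic factor CHOP, went opposite ways in the HOXA9 and SAFB knockouts. It had 13.1, 13.5 and 12.9 CPM in HOXA9_KO, 8.99, 9.49 and 8.58 CPM in SAFB_KO and 10.9, 11 and 9.75 CPM in NT. All HOXA9_KO libraries were above and all SAFB_KO libraries below the NT libraries, by 0.31 ± 0.08 in HOXA9_KO (adjusted p = 0.0011) and -0.23 ± 0.09 in SAFB_KO (adjusted p = 0.0304). The HOXA9_KO change was 0.06 and not called on the protein-coding scale. The SAFB_KO call was lost without NT replicate 1, NT replicate 2, SAFB_KO replicate 1 or SAFB_KO replicate 3 (adjusted p of 0.113, 0.115, 0.0771 and 0.127), with no filter on low counts (0.0504) and with DESeq2 (0.0568). In MEIS1_KO DDIT3 was not called (-0.08 ± 0.07, adjusted p = 0.521). Its exons overlap other genes over 8.03% of their bases on the same strand and 31.6% on the opposite strand.

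NUPR1, a small chromatin-associated stress protein, gave the widest split between HOXA9_KO and SAFB_KO. It had 5.54, 3.3 and 4.68 CPM in HOXA9_KO, 0.529, 0.879 and 0.425 CPM in SAFB_KO and 2.52, 2.96 and 2.09 CPM in NT. No group overlapped another: HOXA9_KO was highest, NT was between, and SAFB_KO stayed under 1 CPM. NUPR1 rose by 0.83 ± 0.18 in HOXA9_KO (adjusted p = 0.00011) and fell by 1.99 ± 0.24 in SAFB_KO (adjusted p = 2.6e-09). It had 8.3, 9.02, 8.52 and 10.1 CPM in MEIS1_KO, against 7.5, 5.24, 6.68 and 7.12 CPM in NT_MEIS1ex. NUPR1 was the 1 member that rose in MEIS1_KO (0.43 ± 0.11, adjusted p = 0.0195), and that call was lost without MEIS1_KO replicate 2 (adjusted p = 0.0553), MEIS1_KO replicate 4 (0.0541) or NT_MEIS1ex replicate 3 (0.0528).

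PPP1R15A, known as GADD34, recruits a protein phosphatase to eIF2 and so ends the response. It had 56.4, 56.4 and 58.8 CPM in HOXA9_KO, 40.1, 40.7 and 39.3 CPM in SAFB_KO and 27.3, 30.9 and 29.8 CPM in NT. The 3 groups were cleanly ordered, and the gene rose by 0.97 ± 0.05 in HOXA9_KO (adjusted p = 2.3e-22) and 0.45 ± 0.05 in SAFB_KO (adjusted p = 4.4e-10). MEIS1_KO (38.2, 47.2, 48 and 55.7 CPM) and NT_MEIS1ex (42.3, 40.5, 45.5 and 39.4 CPM) overlapped, and the change there was not called (0.17 ± 0.09, adjusted p = 0.284). It was called without MEIS1_KO replicate 1 (adjusted p = 0.0336).

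DDIT4 and SESN2 both restrain the growth kinase mTORC1. DDIT4, known as REDD1, had 14.6, 12.8 and 14 CPM in HOXA9_KO, 11.2, 8.27 and 9.54 CPM in SAFB_KO and 23.3, 25.7 and 21.9 CPM in NT. SAFB_KO was lowest and NT highest, with changes of -0.78 ± 0.08 (adjusted p = 2.3e-11) in HOXA9_KO and -1.30 ± 0.08 (adjusted p = 2.5e-17) in SAFB_KO. It had 110.1, 128, 133 and 142 CPM in MEIS1_KO, against 183, 173, 198 and 214 CPM in NT_MEIS1ex, a fall of 0.58 ± 0.08 (adjusted p = 0.00039) with no overlap. An antisense gene covers 41.2% of its exon bases.

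SESN2, a leucine sensor, had 32, 30.7 and 29.6 CPM in HOXA9_KO, 19.7, 20.7 and 19.3 CPM in SAFB_KO and 23.9, 25.6 and 25.2 CPM in NT. Like DDIT3, it lay above NT in every HOXA9_KO library and below NT in every SAFB_KO library, at 0.31 ± 0.06 in HOXA9_KO (adjusted p = 1.4e-05) and -0.32 ± 0.06 in SAFB_KO (adjusted p = 3.2e-05). On the protein-coding scale the HOXA9_KO change was 0.06 and not called. In MEIS1_KO SESN2 had 88.9, 103, 97.6 and 104 CPM, against 117, 107, 113 and 118 CPM in NT_MEIS1ex, and fell by 0.20 ± 0.06 (adjusted p = 0.0307). That call was lost without MEIS1_KO replicate 1 (adjusted p = 0.107), MEIS1_KO replicate 3 (0.0982), NT_MEIS1ex replicate 3 (0.0684) or NT_MEIS1ex replicate 4 (0.106).

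JDP2, an AP-1 family repressor, had 9.22, 9.18 and 8.51 CPM in HOXA9_KO, 5.2, 4.67 and 4.84 CPM in SAFB_KO and 13, 13.2 and 12.6 CPM in NT. It fell in both, by 0.53 ± 0.09 in HOXA9_KO (adjusted p = 8.2e-07) and by 1.41 ± 0.09 in SAFB_KO (adjusted p = 1.1e-17). The MEIS1_KO libraries (39.6, 46.5, 38.2 and 50.5 CPM) overlapped the NT_MEIS1ex ones (62.2, 50.1, 51.7 and 45.2 CPM), and the change was not called (-0.26 ± 0.11, adjusted p = 0.167), though it was with no filter on low counts (0.000904).

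**Figure D2:**
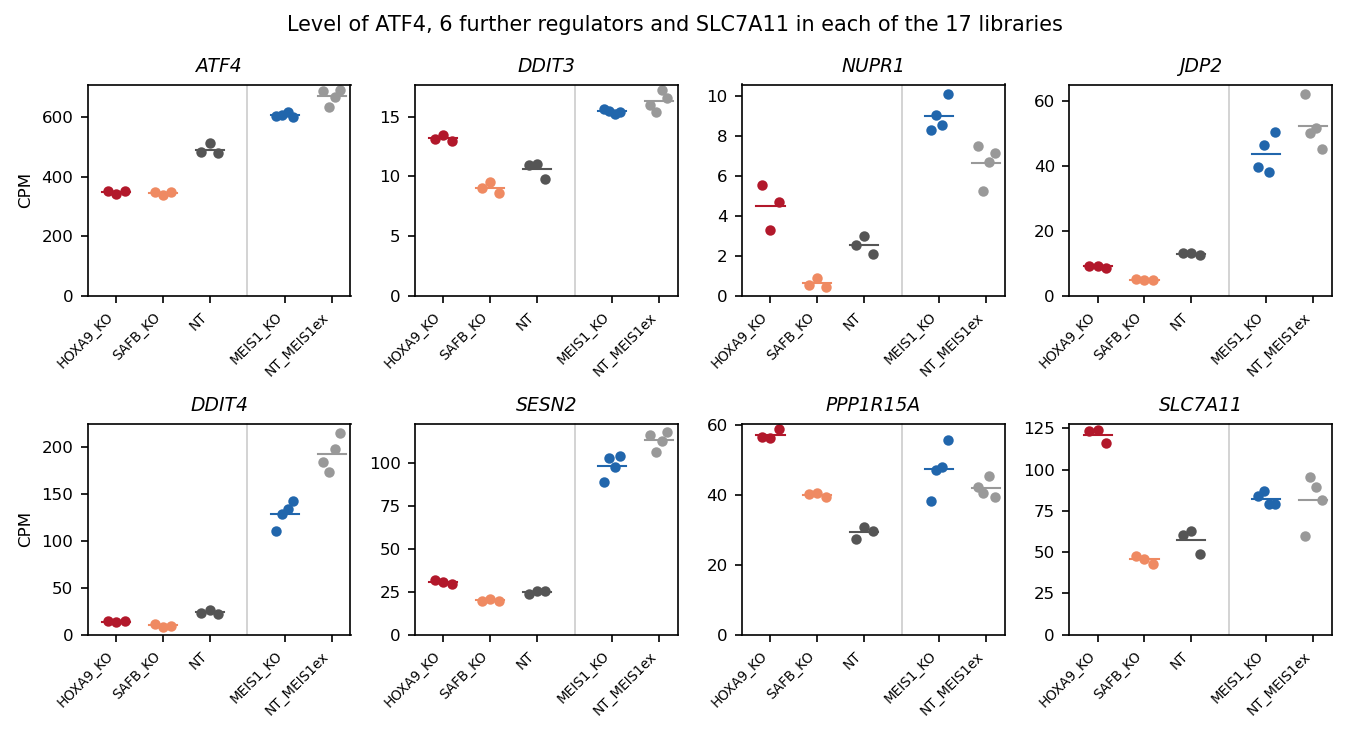
Levels of 8 members in each library (y axis, CPM, linear from 0) by group (x axis), with a line at each group mean; 6 are regulators other than ATF4, beside ATF4 and the transporter SLC7A11. NUPR1, DDIT3, SESN2 and SLC7A11 lie above NT in HOXA9_KO and below NT in SAFB_KO, while PPP1R15A lies above NT in both.

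Most of the enzymes fell. In HOXA9_KO 13 of 15 fell and 0 rose, in SAFB_KO 14 fell and 1 rose, and in MEIS1_KO 13 fell and 0 rose. Their median log2 fold change was -1.35 in HOXA9_KO, -1.06 in SAFB_KO and -0.31 in MEIS1_KO.

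ASNS makes asparagine from aspartate and glutamine and is the textbook ATF4 target. It had 11.1, 9.27 and 12.2 CPM in HOXA9_KO, 15.4, 15.9 and 16.4 CPM in SAFB_KO and 67.1, 72.1 and 65.9 CPM in NT, which in the fit was 6.28-fold lower in HOXA9_KO and 4.3-fold lower in SAFB_KO. All 3 groups were apart, and the SAFB_KO change was -2.10 ± 0.06 (adjusted p = 7.1e-31). The MEIS1 experiment gave 186, 184, 168 and 163 CPM in MEIS1_KO, against 216, 219, 236 and 244 CPM in NT_MEIS1ex. Here too every knockout library was lower, by 0.38 ± 0.06 on the log2 scale (adjusted p = 0.00032). The gene lies on chromosome 7, 97852118 to 97872542, minus strand (hg38), and 44.6% of its exon bases also belong to AC079781.5 on the same strand, so reads there cannot be told apart by position.

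PHGDH, PSAT1 and PSPH are the 3 steps from a glycolytic intermediate to serine. PHGDH had 24.9, 23.6 and 26 CPM in HOXA9_KO, 42.6, 41.4 and 39.7 CPM in SAFB_KO and 122, 129 and 124 CPM in NT. PSAT1 had 45.2, 38.8 and 42.7 CPM in HOXA9_KO, 52.6, 57.7 and 59 CPM in SAFB_KO and 177, 194 and 173 CPM in NT. Both were lowest in HOXA9_KO, next in SAFB_KO and highest in NT with no overlap between groups. PHGDH fell by 1.60 ± 0.04 in SAFB_KO (adjusted p = 7.7e-33). PSAT1 fell by 2.10 ± 0.05 in HOXA9_KO (adjusted p = 4.5e-21) and by 1.68 ± 0.05 in SAFB_KO (adjusted p = 1.5e-18). PSPH, the last step, fell less, by 0.92 ± 0.06 in HOXA9_KO (adjusted p = 1.7e-19) and by 0.63 ± 0.06 in SAFB_KO (adjusted p = 1.5e-13).

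In the MEIS1 experiment PHGDH had 361, 366, 348 and 349 CPM in MEIS1_KO, against 503, 379.6, 443 and 509 CPM in NT_MEIS1ex. PSAT1 had 418, 439.8, 379 and 387 CPM in MEIS1_KO, against 469, 504, 508 and 542 CPM in NT_MEIS1ex. Neither overlapped its controls. PHGDH fell by 0.37 ± 0.08 (adjusted p = 0.00778), PSAT1 by 0.32 ± 0.06 (adjusted p = 0.0015) and PSPH by 0.32 ± 0.05 (adjusted p = 0.00062).

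Serine then feeds the mitochondrial one-carbon pathway. SHMT2, which cleaves serine, fell by 0.62 ± 0.04 in HOXA9_KO, 0.61 ± 0.04 in SAFB_KO and 0.30 ± 0.05 in MEIS1_KO (adjusted p of 8.7e-20, 7.4e-19 and 0.00193). MTHFD2, the next step, fell by 0.70 ± 0.04 in HOXA9_KO, 0.61 ± 0.04 in SAFB_KO and 0.19 ± 0.06 in MEIS1_KO (adjusted p of 1e-22, 1.3e-19 and 0.0366). The MEIS1_KO call for MTHFD2 was lost when any MEIS1_KO library was left out (adjusted p of 0.0507, 0.0524, 0.154 and 0.0697 without replicates 1 to 4), and without NT_MEIS1ex replicate 3 (0.114) or 4 (0.132), and on the protein-coding scale (0.0639). MTHFD1L releases formate from the mitochondrion, and it hardly moved: its libraries held 69.98, 73.5 and 72.7 CPM in HOXA9_KO, 71.8, 71.1 and 70.4 CPM in SAFB_KO and 78.1, 77.7 and 74.2 CPM in NT. Its knockout libraries were all just below NT, with changes of -0.09 ± 0.04 in HOXA9_KO (adjusted p = 0.0538, not called) and -0.11 ± 0.04 in SAFB_KO (adjusted p = 0.0273). Leaving out any NT or SAFB_KO library except NT replicate 3 lost the SAFB_KO call (adjusted p of 0.0592 to 0.0952), as did RLE size factors (0.0564), no filter (0.0724) and DESeq2 (0.0623), and leaving out NT replicate 3 gave a HOXA9_KO call (0.0326). In MEIS1_KO MTHFD1L fell by 0.27 ± 0.05 (adjusted p = 0.00185).

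ALDH1L2, which oxidises formyltetrahydrofolate in the mitochondrion, was unlike its neighbours in the pathway. It had 16.9, 19.9 and 19.1 CPM in HOXA9_KO, 33.9, 30.3 and 30.8 CPM in SAFB_KO and 91.4, 88.6 and 78.7 CPM in NT. The groups were fully apart, at -2.21 ± 0.06 in HOXA9_KO (adjusted p = 5.6e-29) and -1.45 ± 0.06 in SAFB_KO (adjusted p = 5.8e-23). MEIS1_KO (169, 164, 147 and 141 CPM) overlapped NT_MEIS1ex (165, 164, 185 and 168 CPM), and no change was called (-0.14 ± 0.06, adjusted p = 0.181).

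CTH and CBS carry sulfur from homocysteine to cysteine. CTH had 4.61, 3.95 and 4.84 CPM in HOXA9_KO, 6.69, 8.01 and 7.5 CPM in SAFB_KO and 22.2, 22.7 and 21.4 CPM in NT, and 44.1, 45, 41.4 and 37.2 CPM in MEIS1_KO against 50.6, 53.2, 54.1 and 58.4 CPM in NT_MEIS1ex. Every knockout library was below its controls, by 2.31 ± 0.09 in HOXA9_KO, 1.57 ± 0.08 in SAFB_KO and 0.37 ± 0.07 in MEIS1_KO (adjusted p of 2.7e-27, 2.2e-21 and 0.00158). CBS had 2.39, 2.18 and 2.95 CPM in HOXA9_KO, 2.89, 2.85 and 3.54 CPM in SAFB_KO and 6.44, 6.87 and 5.95 CPM in NT. It too was low in all knockout libraries, by 1.35 ± 0.14 in HOXA9_KO (adjusted p = 4.4e-12) and 1.06 ± 0.13 in SAFB_KO (adjusted p = 3.4e-09), but it has a near-identical copy, CBSL, that could take part of its reads, so its values are uncertain. In MEIS1_KO CBS had 13.7, 13.1, 12.2 and 12.4 CPM, against 17.2, 13.5, 14.9 and 18.2 CPM in NT_MEIS1ex (-0.31 ± 0.09, adjusted p = 0.0391). That call was lost when most single libraries were left out: adjusted p was 0.0858, 0.129 and 0.0741 without MEIS1_KO replicates 2, 3 and 4, and 0.0654, 0.0562 and 0.16 without NT_MEIS1ex replicates 1, 3 and 4. It was also lost on the protein-coding scale (0.0575).

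GPT2, the mitochondrial alanine transaminase, was among the deepest falls. It had 5.37, 5.85 and 5.95 CPM in HOXA9_KO, 9.05, 9.64 and 9.54 CPM in SAFB_KO and 35.6, 42.2 and 36.8 CPM in NT. The 3 groups did not touch, and GPT2 fell by 2.73 ± 0.08 in HOXA9_KO (adjusted p = 6.4e-33) and 2.02 ± 0.07 in SAFB_KO (adjusted p = 3.3e-28). MEIS1_KO had 111, 108, 95.4 and 99.7 CPM, against 151, 126, 137 and 143 CPM in NT_MEIS1ex, a fall of 0.43 ± 0.06 (adjusted p = 0.00028) without overlap.

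CHAC1, which breaks down glutathione, is often used as a readout of ATF4 activity. It had 0.928, 1.18 and 1.03 CPM in HOXA9_KO, 0.747, 1.07 and 1.1 CPM in SAFB_KO and 7.2, 8.11 and 7.43 CPM in NT. Both knockouts sat near 1 CPM, well under every NT library, and overlapped each other. CHAC1 fell by 2.85 ± 0.16 in HOXA9_KO (adjusted p = 3.4e-21) and 2.94 ± 0.16 in SAFB_KO (adjusted p = 3.8e-21). Its level was 41.8, 46.9, 43.5 and 41.7 CPM in MEIS1_KO, against 53.9, 49, 51.2 and 54.7 CPM in NT_MEIS1ex. There it was lower in every library, by 0.26 ± 0.06 (adjusted p = 0.00739).

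PCK2, the mitochondrial phosphoenolpyruvate carboxykinase, had 20.8, 17.6 and 20.4 CPM in HOXA9_KO, 22.4, 24.5 and 26.4 CPM in SAFB_KO and 46, 47.5 and 43 CPM in NT. It was lower in both, by 1.22 ± 0.06 in HOXA9_KO (adjusted p = 4.5e-22) and 0.90 ± 0.06 in SAFB_KO (adjusted p = 5.5e-17), and in MEIS1_KO by 0.32 ± 0.05 (adjusted p = 0.00084). PYCR1 and ALDH18A1 are enzymes of proline synthesis. PYCR1 fell by 0.31 ± 0.05 in HOXA9_KO, 0.38 ± 0.05 in SAFB_KO and 0.27 ± 0.05 in MEIS1_KO (adjusted p of 1.4e-06, 6.6e-08 and 0.00317). ALDH18A1 was the 1 enzyme that rose in SAFB_KO (0.18 ± 0.04, adjusted p = 0.00064), a call lost on the protein-coding scale. It was not called in HOXA9_KO (0.05 ± 0.04, adjusted p = 0.327), where the protein-coding scale made it a called fall of -0.20, nor in MEIS1_KO (-0.10 ± 0.05, adjusted p = 0.253).

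**Figure D3:**
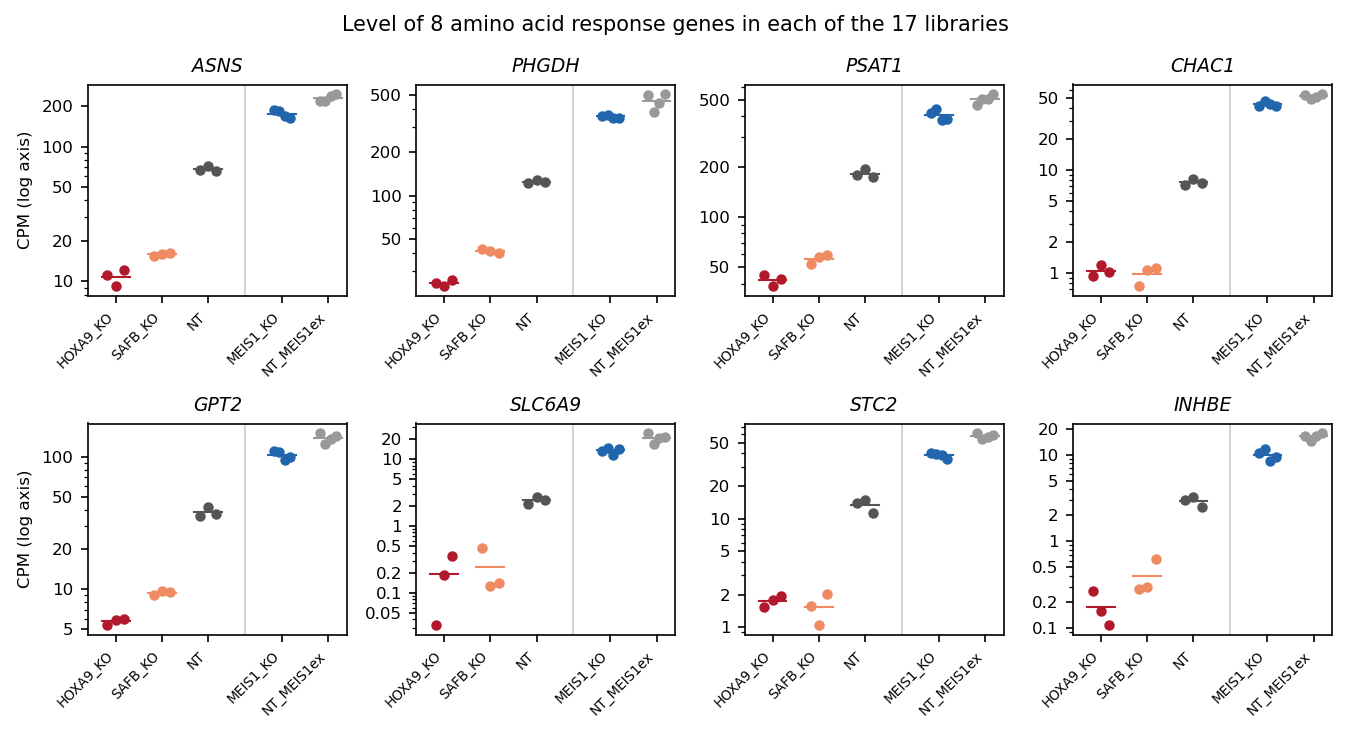
Levels of 8 members with some of the deepest falls in each library (y axis, CPM, log scale) by group (x axis), with a line at the mean of each group; they are 5 enzymes, the transporter SLC6A9 and the secreted STC2 and INHBE. HOXA9_KO and SAFB_KO libraries lie below all NT libraries in every panel, and MEIS1_KO libraries lie just below NT_MEIS1ex.

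Of the 8 transporters, 7 fell and 1 rose in HOXA9_KO, 8 fell in SAFB_KO, and 5 fell with 3 not called in MEIS1_KO. Their median log2 fold change was -0.54 in HOXA9_KO, -0.54 in SAFB_KO and -0.23 in MEIS1_KO.

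SLC7A11 joins SLC3A2 to import cystine in exchange for glutamate, and it ran against the rest. It had 123, 124 and 116 CPM in HOXA9_KO, 47.8, 45.9 and 43 CPM in SAFB_KO and 60.2, 62.5 and 48.6 CPM in NT. The HOXA9_KO libraries were far above NT and the SAFB_KO libraries were just below it. SLC7A11 rose by 1.08 ± 0.09 in HOXA9_KO (adjusted p = 9.7e-06) and fell by 0.33 ± 0.09 in SAFB_KO (adjusted p = 0.0257). The SAFB_KO call was lost without NT replicate 1 (adjusted p = 0.101), SAFB_KO replicate 2 (0.0788) or SAFB_KO replicate 3 (0.0817). MEIS1_KO had 84.3, 87.2, 79.1 and 79 CPM, against 59.6, 95.6, 89.7 and 81.4 CPM in NT_MEIS1ex, which overlapped (0.01 ± 0.13, adjusted p = 0.964).

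SLC3A2 is the shared heavy chain of SLC7A11 and SLC7A5, and SLC7A5 (LAT1) carries leucine and other large neutral amino acids. SLC3A2 had 106, 104 and 108 CPM in HOXA9_KO, 84.9, 82.8 and 80.9 CPM in SAFB_KO and 124, 130.3 and 124 CPM in NT. SLC7A5 had 107, 102 and 105 CPM in HOXA9_KO, 83, 81.8 and 82.5 CPM in SAFB_KO and 150.1, 173 and 168 CPM in NT. For both genes SAFB_KO was lowest, HOXA9_KO next and NT highest, with no overlap. SLC3A2 fell by 0.25 ± 0.04 in HOXA9_KO (adjusted p = 6.8e-08) and 0.61 ± 0.04 in SAFB_KO (adjusted p = 4.7e-19). SLC7A5 fell by 0.64 ± 0.04 in HOXA9_KO (adjusted p = 6.1e-19) and 0.99 ± 0.04 in SAFB_KO (adjusted p = 5.1e-25).

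In the MEIS1 experiment SLC3A2 had 274, 309.5, 305 and 308 CPM in MEIS1_KO, against 347, 327, 347 and 384 CPM in NT_MEIS1ex. SLC7A5 had 908, 980.5, 903 and 935 CPM in MEIS1_KO, against 1227, 1161, 1203 and 1268 CPM in NT_MEIS1ex. Every MEIS1_KO library was below every control library for both genes. SLC3A2 fell by 0.23 ± 0.06 (adjusted p = 0.0139), a call lost without MEIS1_KO replicate 1 (adjusted p = 0.0515) or NT_MEIS1ex replicate 4 (0.0563), and SLC7A5 fell by 0.38 ± 0.05 (adjusted p = 4.8e-05).

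SLC6A9, a glycine transporter, was left with few reads in HOXA9_KO and SAFB_KO. It had 0.0331, 0.187 and 0.351 CPM in HOXA9_KO, 0.467, 0.129 and 0.142 CPM in SAFB_KO and 2.16, 2.74 and 2.41 CPM in NT. The knockout values rest on 1, 6 and 13 reads in HOXA9_KO and 15, 6 and 5 reads in SAFB_KO, against 160, 139 and 111 reads in NT, so their sizes are loosely set while the gap is wide. The log2 fold change was -3.59 ± 0.37 in HOXA9_KO (adjusted p = 8.1e-11) and -3.38 ± 0.35 in SAFB_KO (adjusted p = 3.5e-10). In the MEIS1 experiment SLC6A9 stood at 13.4, 14.9, 11.7 and 14.3 CPM in MEIS1_KO, against 24.5, 17, 20.5 and 21.7 CPM in NT_MEIS1ex, a fall of 0.63 ± 0.10 (adjusted p = 0.00095) without overlap.

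SLC1A5, the main glutamine carrier of many tumour cells, had 73, 64 and 69 CPM in HOXA9_KO, 80.4, 80.5 and 82.6 CPM in SAFB_KO and 136, 143 and 133 CPM in NT. It fell in both with no overlap, by 1.0 ± 0.04 in HOXA9_KO (adjusted p = 1e-26) and 0.76 ± 0.04 in SAFB_KO (adjusted p = 2.4e-21), and by 0.34 ± 0.05 in MEIS1_KO (adjusted p = 0.00041). SLC7A1, the arginine and lysine carrier, fell by 0.63 ± 0.04 in HOXA9_KO, 0.45 ± 0.04 in SAFB_KO and 0.23 ± 0.05 in MEIS1_KO (adjusted p of 9.3e-18, 2.1e-12 and 0.00415). The neutral amino acid carriers SLC1A4 and SLC38A2 passed the test in 2 of the 3 knockouts. SLC1A4 fell by 0.36 ± 0.04 in HOXA9_KO and 0.25 ± 0.04 in SAFB_KO, and SLC38A2 fell by 0.45 ± 0.03 in HOXA9_KO and 0.48 ± 0.03 in SAFB_KO. In MEIS1_KO they changed by -0.12 ± 0.04 (adjusted p = 0.0873) and -0.12 ± 0.07 (adjusted p = 0.302), SLC1A4 was called with DESeq2 (adjusted p = 0.0401), and SLC38A2 was called without NT_MEIS1ex replicate 1 (adjusted p = 0.0164).

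The secreted and surface products fell deepest as a group: all 4 fell in HOXA9_KO and in SAFB_KO and 3 fell in MEIS1_KO, with median log2 fold changes of -3.14 in HOXA9_KO, -2.95 in SAFB_KO and -0.48 in MEIS1_KO. STC2, a secreted glycoprotein that responds to stress, had 1.52, 1.77 and 1.92 CPM in HOXA9_KO, 1.56, 1.05 and 2.04 CPM in SAFB_KO and 13.9, 14.8 and 11.3 CPM in NT. Both knockouts stayed near 2 CPM or under, far below NT, at -2.93 ± 0.15 in HOXA9_KO (adjusted p = 2.6e-20) and -3.15 ± 0.15 in SAFB_KO (adjusted p = 1.9e-20). It had 40.01, 39.7, 38.8 and 35.5 CPM in MEIS1_KO, against 61.3, 53.5, 56.5 and 58.4 CPM in NT_MEIS1ex, a fall of 0.57 ± 0.06 (adjusted p = 8.8e-06).

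ADM2, a peptide hormone of the calcitonin family, had 1.29, 0.747 and 0.622 CPM in HOXA9_KO, 0.996, 1.37 and 0.849 CPM in SAFB_KO and 8.74, 10.1 and 7.84 CPM in NT. The knockout libraries overlapped each other and lay far under NT, at -3.35 ± 0.18 in HOXA9_KO (adjusted p = 7.6e-21) and -3.02 ± 0.17 in SAFB_KO (adjusted p = 1.6e-19). In MEIS1_KO it had 41.5, 45, 39.9 and 44.6 CPM, against 60.2, 49.8, 57.6 and 54.3 CPM in NT_MEIS1ex (-0.38 ± 0.06, adjusted p = 0.00113).

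INHBE, an inhibin beta subunit, had 0.265, 0.156 and 0.108 CPM in HOXA9_KO, 0.280, 0.300 and 0.623 CPM in SAFB_KO and 3.02, 3.28 and 2.5 CPM in NT. These values rest on 8, 5 and 4 reads in HOXA9_KO, 9, 14 and 22 reads in SAFB_KO and 223, 166 and 115 reads in NT. It was again low in every knockout library, at -4.07 ± 0.32 in HOXA9_KO (adjusted p = 1e-15), the most negative change of the 37 members in any knockout, and -2.88 ± 0.27 in SAFB_KO (adjusted p = 1.1e-12). MEIS1_KO had 10.7, 11.9, 8.63 and 9.39 CPM, against 16.8, 14.7, 16.6 and 18 CPM in NT_MEIS1ex, a fall of 0.70 ± 0.10 (adjusted p = 0.00018). VLDLR, a lipoprotein receptor induced by ATF4, fell by 0.91 ± 0.05 in HOXA9_KO (adjusted p = 2e-20) and 0.83 ± 0.05 in SAFB_KO (adjusted p = 1.8e-18). Its change of -0.12 ± 0.05 in MEIS1_KO was not called (adjusted p = 0.176).

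The direct comparison of HOXA9_KO with SAFB_KO separated the roles. The enzymes were lower in HOXA9_KO (10 of 15 fell, 0 rose), the regulators higher (6 of 10 rose, 1 fell), and the transporters divided (3 rose, 3 fell). Some of these calls were narrow. MTHFD2 (-0.09, adjusted p = 0.0397) lost its call with RLE size factors (0.134), DESeq2 (0.202) and limma-voom (0.0591), among other settings. The SLC1A4 call (-0.11, adjusted p = 0.0132) was lost with RLE size factors (0.0557) and DESeq2 (0.071), among other settings. Leaving out HOXA9_KO replicate 2 or 3, or SAFB_KO replicate 2, lost the ALDH18A1 call (-0.13, adjusted p = 0.014). Over the 37 members 15 fell, 9 rose and 13 were not called, where 40.6% of all tested genes were called, 20.5% lower and 20.1% higher. By libraries, 17 members lay below, 9 above and 11 overlapped, against 24.6% below and 23.6% above over all tested genes. On the protein-coding scale 19 fell and 9 rose, the median over all tested genes was -0.13 and 29.6% of calls were higher, against 49.4% in the main fit.

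Among the enzymes, ASNS (-0.55 ± 0.07, adjusted p = 2.8e-08), PHGDH (-0.73 ± 0.05, adjusted p = 9.2e-18), ALDH1L2 (-0.76 ± 0.06, adjusted p = 6.6e-13), CTH (-0.73 ± 0.10, adjusted p = 6.6e-08) and GPT2 (-0.72 ± 0.09, adjusted p = 5.6e-09) were lower in HOXA9_KO than in SAFB_KO. CHAC1 was not called (0.09 ± 0.22, adjusted p = 0.798). Of the regulators, NUPR1 (2.82 ± 0.23, adjusted p = 4.6e-14), JDP2 (0.87 ± 0.10, adjusted p = 3.4e-10), SESN2 (0.63 ± 0.06, adjusted p = 3.8e-12), DDIT3 (0.54 ± 0.09, adjusted p = 9.7e-07), DDIT4 (0.53 ± 0.09, adjusted p = 4.9e-06) and PPP1R15A (0.52 ± 0.05, adjusted p = 3.9e-12) were higher in HOXA9_KO. ATF5 was the regulator that was lower (-0.27 ± 0.06, adjusted p = 7.1e-05).

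ATF4 did not differ by the test between the knockouts (0.02 ± 0.03, adjusted p = 0.72), and on the protein-coding scale it was lower in HOXA9_KO by a called -0.10 (adjusted p = 0.00725). The transporters that were higher in HOXA9_KO were SLC7A11 (1.41 ± 0.09, adjusted p = 3.6e-06), SLC7A5 (0.35 ± 0.04, adjusted p = 1.5e-09) and SLC3A2 (0.36 ± 0.04, adjusted p = 3.4e-11), which are the heavy chain and both partners named above. SLC1A5 was lower (-0.24 ± 0.04, adjusted p = 4.7e-06). Changes of at least 1 were seen for NUPR1 and SLC7A11, higher in HOXA9_KO (2.86% of all tested genes), and for INHBE, lower (3.01% of all tested genes) at -1.19 ± 0.44 (adjusted p = 0.0261). The INHBE call rested on few reads and was lost without HOXA9_KO replicate 2 (adjusted p = 0.0744), HOXA9_KO replicate 3 (0.148) or SAFB_KO replicate 3 (0.26), with limma-voom (0.118) and in a fit of those 2 groups alone (0.0684).

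**Figure D4:**
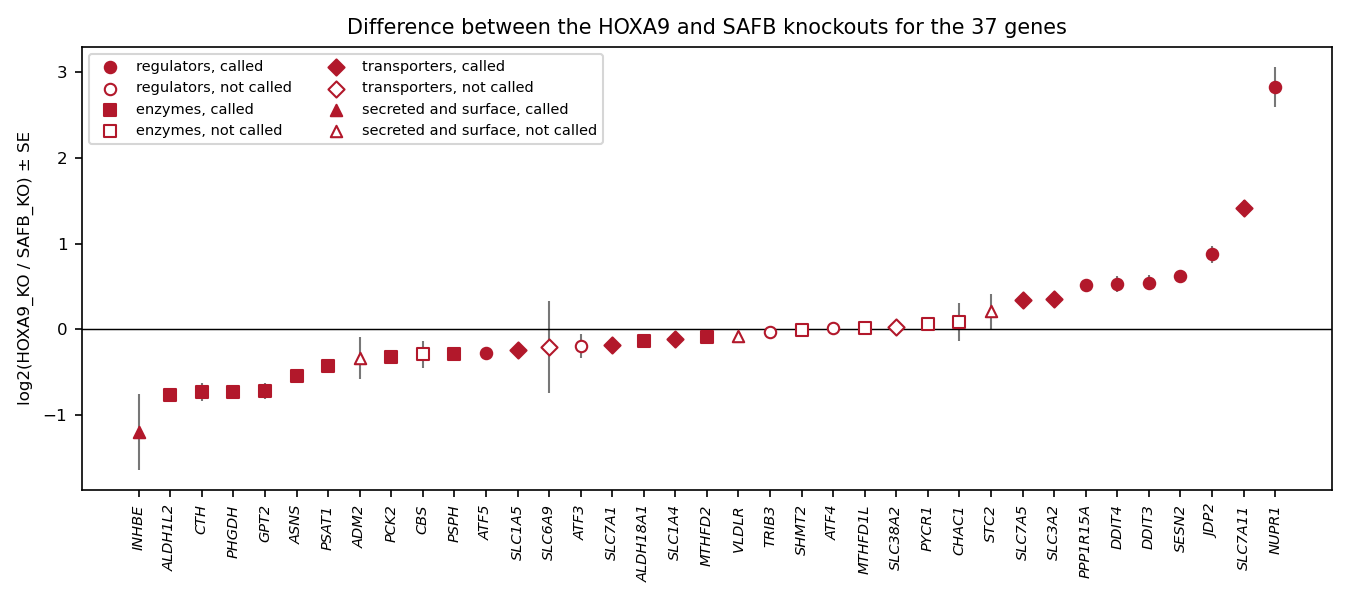
Log2 ratio of HOXA9_KO to SAFB_KO (y axis, log2, bars show SE) for the 37 members (x axis, ordered by the ratio), with the marker shape showing the role and filled markers the called genes. Enzymes gather at the left, lower in HOXA9_KO, and regulators at the right, with SLC7A11 and NUPR1 highest.

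Many of the members were also lower in MEIS1_KO. Its comparison shares no library with the others. MEIS1 mRNA itself fell in HOXA9_KO (-1.54 ± 0.06) and in MEIS1_KO (-1.54 ± 0.07) by changes that did not differ by the test (0.04 ± 0.09, adjusted p = 0.757). The difference of effects, each taken against its own controls, was tested in 1 fit of all 17 libraries. In these differences the knockout cannot be told apart from the experiment. The experiments also differ in mitochondrial ribosomal RNA and in the control levels of most members.

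The HOXA9 effect was more negative than the MEIS1 effect for 25 members, more positive for 6 and not called for 6, where 44.2% of 18836 tested genes were called, 19.7% lower and 24.5% higher. On the protein-coding scale 30 were more negative and 3 more positive, the median over all tested genes was -0.35 and SLC3A2 turned to a called -0.30 (0.02 and not called in the main fit). Differences of at least 1 were seen for 13 members in the negative direction (8.53% of all tested genes) and 1 in the positive direction, SLC7A11 (3.92%). The largest of them were INHBE (-3.33 ± 0.32, adjusted p = 1.2e-10), ADM2 (-2.93 ± 0.20, adjusted p = 2.9e-12), SLC6A9 (-2.90 ± 0.42, adjusted p = 1.1e-05) and CHAC1 (-2.54 ± 0.15, adjusted p = 1.6e-16). ASNS differed by -2.22 ± 0.09 (adjusted p = 1.7e-19) and ATF4 by -0.31 ± 0.06 (adjusted p = 7.9e-05). Members more positive in HOXA9_KO were SLC7A11 (1.11 ± 0.17, adjusted p = 0.00015), PPP1R15A (0.84 ± 0.11), SESN2 (0.56 ± 0.08), DDIT3 (0.44 ± 0.10), MTHFD1L (0.23 ± 0.07) and ALDH18A1 (0.19 ± 0.07). On the protein-coding scale DDIT3 was 0.11 and not called (adjusted p = 0.368), and MTHFD1L and ALDH18A1 turned to -0.10 and -0.13, neither called. With a minimum mean of 2 CPM the MTHFD1L (adjusted p = 0.0894) and ALDH18A1 (0.209) calls were lost, and with no filter that of ALDH18A1 (0.0871). The ALDH18A1 call was also lost without NT replicate 2 (adjusted p = 0.0579), HOXA9_KO replicate 1 (0.0501), MEIS1_KO replicate 3 (0.0641) or NT_MEIS1ex replicate 4 (0.0547).

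The SAFB effect was more negative than the MEIS1 effect for 28 members, more positive for 1 (ALDH18A1, 0.29 ± 0.07, adjusted p = 0.00243) and not called for 8, where 20.9% of tested genes were called, 8.49% lower and 12.4% higher. On the protein-coding scale the ALDH18A1 difference was 0.12 and not called (adjusted p = 0.221). Differences of at least 1 were seen for 14 members, all negative (3.17% of all tested genes). They included CHAC1 (-2.66 ± 0.14, adjusted p = 2e-15), NUPR1 (-2.41 ± 0.28, adjusted p = 2e-07) and ASNS (-1.71 ± 0.09, adjusted p = 2.2e-15). TRIB3 and PYCR1 were called in neither difference in the main fit: the HOXA9 minus MEIS1 difference was -0.21 ± 0.10 for TRIB3 and 0.00 ± 0.05 for PYCR1, and the SAFB minus MEIS1 difference was -0.21 ± 0.10 for TRIB3 and -0.10 ± 0.08 for PYCR1. Protein-coding scaling made all 4 values called: the HOXA9 difference became -0.53 for TRIB3 (adjusted p = 9.38e-06) and -0.32 for PYCR1 (0.000258), and the SAFB difference -0.38 for TRIB3 (0.00198) and -0.27 for PYCR1 (0.00442). For TRIB3 both differences were also called with a minimum mean of 2 CPM (adjusted p of 0.00848 for HOXA9 and 0.03 for SAFB), and the HOXA9 difference without MEIS1_KO replicate 1 (0.0327) or NT_MEIS1ex replicate 4 (0.0302).

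The other genes of the pathway did not all follow the members. The lists were set by function but with earlier results of these data known, and are described by counts beside the background shares given above. Of 20 cytosolic aminoacyl-tRNA synthetases, which charge tRNAs, 12 fell and 5 rose in HOXA9_KO, 11 fell and 4 rose in SAFB_KO, and 11 fell and 0 rose in MEIS1_KO. On the protein-coding scale 18 fell and 1 rose in HOXA9_KO. AARS1 (alanine), IARS1 (isoleucine), GARS1 (glycine) and YARS1 (tyrosine) had the smallest p-values in HOXA9_KO, at -0.88 ± 0.04, -0.59 ± 0.03, -0.68 ± 0.04 and -0.76 ± 0.04 (adjusted p of 3.1e-27, 7.4e-22, 6.9e-21 and 2.3e-24). QARS1 (glutamine) rose there by 0.46 ± 0.04 (adjusted p = 3.8e-16). In SAFB_KO these 4 genes fell by 0.57 ± 0.03, 0.34 ± 0.03, 0.71 ± 0.04 and 0.47 ± 0.04. In MEIS1_KO AARS1 was not called (-0.13 ± 0.05), and IARS1, GARS1 and YARS1 fell by 0.25 ± 0.05, 0.22 ± 0.05 and 0.18 ± 0.05.

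The eIF2 kinases and the subunits of eIF2 and its exchange factor eIF2B, upstream of ATF4, showed small changes for the most part. Of these 16 genes 5 rose and 3 fell in HOXA9_KO, 6 rose and 3 fell in SAFB_KO and 1 rose in MEIS1_KO, but on the protein-coding scale 0 rose and 14 fell in HOXA9_KO and 1 rose and 6 fell in SAFB_KO, so no direction is read. The amino acid sensor EIF2AK4 was not called in HOXA9_KO (-0.02 ± 0.05, adjusted p = 0.717), SAFB_KO (-0.07 ± 0.05, adjusted p = 0.277) or MEIS1_KO (-0.07 ± 0.05, adjusted p = 0.399). It was named after its values were seen. EIF2AK2, the kinase for viral RNA (PKR), is itself induced by interferon. It had 64.5, 69.8 and 69.7 CPM in HOXA9_KO, 113, 106 and 110.5 CPM in SAFB_KO and 288, 252 and 216 CPM in NT. It fell by 1.89 ± 0.11 in HOXA9_KO (adjusted p = 5.3e-06) and 1.20 ± 0.10 in SAFB_KO (adjusted p = 0.00013), alongside the interferon response genes, and rose by 0.30 ± 0.07 in MEIS1_KO (adjusted p = 0.0161). EIF2AK3, the kinase of the endoplasmic reticulum (PERK), fell by 0.44 ± 0.10 in HOXA9_KO (adjusted p = 9e-05) and 0.30 ± 0.09 in SAFB_KO (adjusted p = 0.00936).

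Of 10 possible dimer partners of ATF4, 8 rose and 2 fell in HOXA9_KO, 3 rose and 2 fell in SAFB_KO and 1 rose and 1 fell in MEIS1_KO. CEBPB, a myeloid C/EBP factor, had 19.8, 19.2 and 16.6 CPM in HOXA9_KO, 5.26, 4.74 and 5.04 CPM in SAFB_KO and 4.02, 5.33 and 4.13 CPM in NT. It rose in HOXA9_KO (2.05 ± 0.10, adjusted p = 1.6e-23) and was not called in SAFB_KO (0.16 ± 0.11, adjusted p = 0.291). CEBPD rose by 1.71 ± 0.07 in HOXA9_KO (adjusted p = 1.8e-26) and 0.65 ± 0.07 in SAFB_KO (adjusted p = 5.2e-10), and CEBPA by 0.92 ± 0.04 in HOXA9_KO (adjusted p = 2.9e-24) and 0.35 ± 0.04 in SAFB_KO (adjusted p = 1.8e-09). BATF2 fell by 2.68 ± 0.41 in HOXA9_KO (adjusted p = 2.9e-06) and 3.20 ± 0.43 in SAFB_KO (adjusted p = 9.2e-07), and BATF3 by 0.83 ± 0.18 in HOXA9_KO and 1.04 ± 0.18 in SAFB_KO. On the protein-coding scale 6 of the 10 rose and 3 fell in HOXA9_KO.

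Genes of other stress programs were listed apart from the members. Of 22 genes of the endoplasmic reticulum's unfolded protein response, 18 rose and 2 fell in HOXA9_KO and 16 rose and 2 fell in SAFB_KO, and on the protein-coding scale 11 rose and 3 fell in HOXA9_KO and 12 rose and 3 fell in SAFB_KO. HYOU1, a chaperone, rose by 0.70 ± 0.04 in HOXA9_KO (adjusted p = 4.2e-20) and 0.48 ± 0.04 in SAFB_KO (adjusted p = 7.2e-14), and ERN1, the sensor that splices XBP1, by 0.85 ± 0.06 in HOXA9_KO (adjusted p = 1.1e-17) and 0.40 ± 0.06 in SAFB_KO (adjusted p = 4.1e-07). XBP1 mRNA itself fell by 1.59 ± 0.04 in HOXA9_KO (adjusted p = 1.6e-37) and 0.67 ± 0.03 in SAFB_KO (adjusted p = 8.2e-22). Of 12 targets of NRF2, the oxidant response factor, 12 rose in HOXA9_KO and 7 rose and 1 fell in SAFB_KO, but on the protein-coding scale 2 rose and 2 fell in SAFB_KO. HMOX1, which degrades haem, rose by 3.71 ± 0.12 in HOXA9_KO (adjusted p = 8.3e-31) and 0.49 ± 0.16 in SAFB_KO (adjusted p = 0.014). SLC7A11 is itself an NRF2 target as well as an ATF4 target, and the part of NRF2 in its change was not tested.

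Of 20 p53 targets that are not members, 20 rose in HOXA9_KO, 20 in SAFB_KO and 3 in MEIS1_KO, with 1 lower there, and on the protein-coding scale 19 rose and 1 fell in HOXA9_KO. CDKN1A, the cell cycle inhibitor p21, rose by 2.02 ± 0.03 in HOXA9_KO (adjusted p = 6.5e-43), 1.06 ± 0.03 in SAFB_KO (adjusted p = 1.5e-30) and 0.32 ± 0.04 in MEIS1_KO (adjusted p = 0.0001). MDM2, the ligase that restrains p53, rose by 1.22 ± 0.03 in HOXA9_KO (adjusted p = 2.3e-36) and 0.84 ± 0.03 in SAFB_KO (adjusted p = 1.5e-28). SESN2 and PPP1R15A among the members also have known regulation outside ATF4, SESN2 as a p53 target. SESN2 changed by 0.31 in HOXA9_KO and by -0.32 in SAFB_KO. The part of p53 in the members' changes was not tested. Of the 9 tested genes of the cytosolic and nuclear one-carbon pathway, 6 fell and 2 rose in HOXA9_KO, 3 fell and 1 rose in SAFB_KO and 3 fell in MEIS1_KO. With protein-coding library sizes 8 of them fell and 0 rose in HOXA9_KO.

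**Figure D5:**
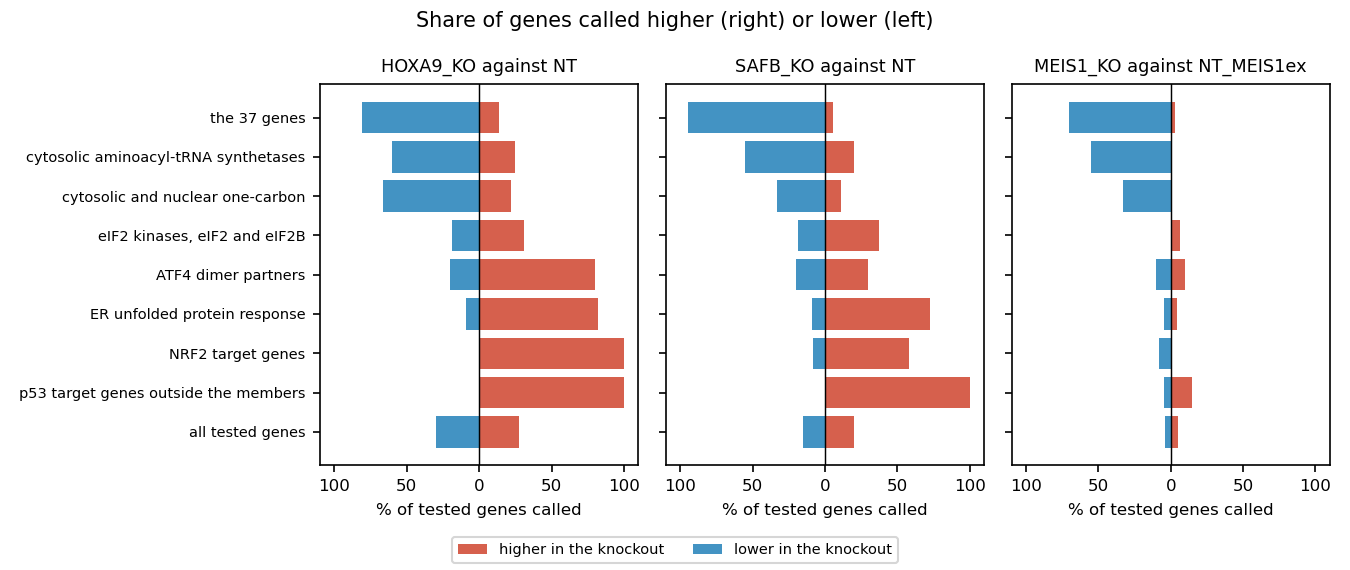
Share of tested genes called higher (bars to the right) and lower (bars to the left) in each knockout (x axis, % of tested genes) for the 37 members, the 7 pathway lists and all tested genes (y axis), on the main scale. The members, the tRNA synthetases and the one-carbon genes have longer bars to the left in each comparison, and the unfolded protein response, NRF2 and p53 lists have longer bars to the right in HOXA9_KO and SAFB_KO.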

How the data were processed

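RNA-seq read counts per gene from 17 MOLM13 libraries were used as deposited: whole-number counts, not normalized. The authors made them with Trim Galore, STAR 2.7.10a, HTSeq 1.99.2 and bedtools on hg38, per the submitters' processing notes. Libraries came from a directional kit after ribosomal RNA depletion and were sequenced as paired reads, per the labels' protocols. The sources used here do not give the annotation release or the strand setting. Gene names and positions came from GENCODE 29, which held 57937 of the 58278 identifiers. The 5 summary lines of HTSeq were left out of library sizes, and unassigned reads that matched no counted feature came to 6.07 to 18.1%.

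Counts were fitted with edgeR 4.0.16 (R 4.3.3), with TMM scaling, filterByExpr (minimum count 10, minimum total 15) and the robust quasi-likelihood F test. Unless an alternative is named, every adjusted p is from that test, Benjamini-Hochberg adjusted over all tested genes. Values given with DESeq2 carry the adjustment that DESeq2 makes. A gene was called under 0.05. One fit held the 9 libraries of HOXA9_KO, SAFB_KO and NT, another the 8 of the MEIS1 experiment, and a fit of all 17 tested differences of effects. CPM are counts per M reads on TMM library sizes within each experiment, so levels of the experiments are not on 1 scale. The biological coefficient of variation was 4.63%, 6.75% and 5.92% in the fits of 9, 8 and 17 libraries. Fold changes are log2 with SE, knockout over control. The tests of HOXA9_KO against NT and MEIS1_KO against NT_MEIS1ex were also run on simulated data, and the fit of 17 libraries was not. The simulation used 1 spread for all genes and changed far fewer genes than were called here. Its bound on power was lowered after a first run missed it. Alternatives were size factors by RLE, nuclear protein-coding library sizes, other filters, DESeq2 1.42.0, limma-voom (limma 3.58.1), a replicate block and leaving out each library. Figures used Python 3.11.15 and matplotlib 3.10.9.

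The members and all lists were chosen with earlier results of these data known. All members could be named. Values by library were given for members called with a log2 change of at least 1, and for ATF4, ATF5, DDIT3, ATF3, DDIT4, SESN2, SLC7A11, SLC7A5 and SLC3A2, and also for MTHFD1L and PPP1R15A, chosen after their values were seen. Of each pathway list up to 4 genes by the smallest p in HOXA9_KO were named, plus genes called in the other direction from most of the list. Some genes that this rule would name are not reported here.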

Additional observations from a re-analysis of the deposited data

Results flagged for a closer look

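Of 74 groups of 4 libraries examined for a library that stands apart, 3 were flagged, where chance flags about 1 in 20 groups. The highest NT_MEIS1ex library for ALDH1L2 had 185 CPM, replicate 3, while the other controls had 164 to 168 CPM. SLC3A2 had 274 CPM in MEIS1_KO replicate 1, below the other MEIS1_KO libraries at 305 to 310 CPM. For SLC1A4 the low library was MEIS1_KO replicate 4 at 195 CPM, while the other MEIS1_KO libraries had 204 to 205 CPM. Groups of 3 libraries were not examined in this way.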

How the results depend on the processing

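The counts of members lower stayed within 1.5 times of the reported value for all 6 comparisons and all alternatives run: over the alternatives that kept every library they were 29 to 32 in HOXA9_KO, 33 to 35 in SAFB_KO and 24 to 28 in MEIS1_KO, and with a library left out 30 to 31, 32 to 35 and 22 to 27. In HOXA9_KO against SAFB_KO 13 to 19 were lower, and 11 to 16 with a library left out. The minimum mean of 2 CPM left 35 members tested in the fit of 9 libraries, and the fit of HOXA9_KO and SAFB_KO alone tested 36. The small counts of members higher moved more. On nuclear protein-coding library sizes 3 rose in HOXA9_KO (5 in the main fit), 1 in SAFB_KO (2), 3 in the HOXA9 effect minus the MEIS1 effect (6) and 0 in the SAFB effect minus the MEIS1 effect (1). The last count was 3 with RLE size factors, 2 with no filter, 3 with DESeq2, 2 with limma-voom and 1 to 2 with a library left out. In MEIS1_KO 0 to 2 members rose with a library left out, and 751 to 1772 of all genes were called, against 1387 with every library. The counts beyond 1.5 times were 873 without MEIS1_KO replicate 2, 751 without MEIS1_KO replicate 3 and 884 without NT_MEIS1ex replicate 4.

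Of the values called in the main fit or under the alternative, those that changed sign did so on nuclear protein-coding library sizes. ALDH18A1 in HOXA9_KO became -0.20 (adjusted p = 6.6e-05), and ATF4 in HOXA9_KO against SAFB_KO became -0.10 (adjusted p = 0.00725). In the HOXA9 effect minus the MEIS1 effect, MTHFD1L became -0.10, ALDH18A1 -0.13, neither called, and SLC3A2 -0.30 (adjusted p = 0.000247). That scaling moves the median of all genes by construction, to -0.35 in the HOXA9 effect minus the MEIS1 effect (19.3% of calls higher, 55.5% in the main fit) and to -0.18 in the SAFB effect minus the MEIS1 effect (14.8%, 59.3%).

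Same-numbered libraries did not deviate together (correlations of -0.195 to 0.0953). With so few libraries in a group, this cannot settle whether the numbers pair them. With the replicate number as a block, 10787 genes were called in HOXA9_KO (10847 without it), 6718 in SAFB_KO (6698), 1195 in MEIS1_KO (1387) and 7642 in HOXA9_KO against SAFB_KO (7668). Among the members the block lost the MTHFD2 call in MEIS1_KO (adjusted p = 0.0658). For the differences of effects the block gave 8090 calls for HOXA9 (8321) and 3703 for SAFB (3930), and among the members TRIB3 just passed the threshold for HOXA9 (adjusted p rounding to 0.05, 0.0908 without the block). Depth limits SLC6A9 and INHBE most, whose knockout libraries held 1 to 22 reads in HOXA9_KO and SAFB_KO.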

Other observations

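The 2 sets of non-targeting controls differ in the level of most members. Set per M nuclear protein-coding reads, which leaves out the mitochondrial ribosomal RNA, 31 of the 37 members were higher in every NT_MEIS1ex library than in every NT library, 1 was lower and 5 overlapped. The median ratio of NT_MEIS1ex to NT was 2.18 over the members, with a range of 0.890 to 5.59. Over 11360 nuclear protein-coding genes of at least 2 per M in a control set, the median ratio was 0.874, and 32.1% were higher in every NT_MEIS1ex library. The 2 control sets belong to separate experiments, and the experiment cannot be told apart from the cells' state, so no test was made.

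SLC6A9 stood at 22 ± 3.19 per M reads in NT_MEIS1ex and 3.93 ± 0.47 in NT (SD, n = 4 and 3). DDIT4 was 202 ± 16.2 in NT_MEIS1ex and 38.1 ± 3.19 in NT. SLC7A5, the leucine carrier, averaged 1276 ± 30.1 in NT_MEIS1ex and 264 ± 19.4 in NT. Levels of CHAC1 were 54.8 ± 2.07 in NT_MEIS1ex and 12.2 ± 0.775 in NT. ATF4 was the 1 member that was lower in every NT_MEIS1ex library, at 706 ± 21.3 in NT_MEIS1ex and 792 ± 31.3 in NT.

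Per kilobase of exon, ATF4 mRNA had the highest mean level of the members in the controls, at 267 CPM per kb in NT_MEIS1ex and 195 CPM per kb in NT. SLC7A5 came next in NT_MEIS1ex at 256 CPM per kb, and PSAT1 came next in NT at 82.9 CPM per kb.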
